A study of Mus musculus with 13 samples.

Results

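The 6 myeloid lineage transcription factor genes Cebpa, Cebpb, Cebpd, Spi1, Gfi1 and Irf8 were read in mouse bone marrow as 1 array row each, found by gene symbol among 19505 genes with a row. All 6 lay above the median of their array on every one of the 13 arrays and were among the 10601 genes tested. The marrow came from irradiated C57Bl/6J recipients (7 Gy) of LSK cells, a marrow fraction rich in stem and progenitor cells, taken from Cas9 knock-in mice and given guide RNAs 24 h before transplantation. BRSST+sgEzh2 marrow (4 arrays) carried the BRSST guide combination, which the labels do not spell out, with a guide to Ezh2. BRSST+sgLuc marrow (5 arrays) carried the same combination with the control guide sgLuc. sgLuc marrow (4 arrays) carried the control guide alone, and Cas9, irradiation and transplantation were common to every group. Marrow was taken whole, either when signs of leukemia appeared or at 6 months. The sources used here give neither which of these applied to a sample nor the age of the mice, the share of cells from the donor, the share that was edited, or whether each array stands for a separate mouse. The p-values therefore measure the spread between these arrays, which may be technical.

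These factors set the course of blood progenitors. PU.1, the product of Spi1, and C/EBP alpha open the myeloid programme, C/EBP beta and C/EBP delta act in emergency and late myeloid maturation, and GFI1 and IRF8 mark a fork at which GFI1 favours neutrophils and IRF8 favours monocytes and dendritic cells. Irf8 is also transcribed in B cells and plasmacytoid dendritic cells, so its level in whole marrow does not belong to the myeloid line alone. In whole tissue, fewer cells of a type and less RNA per cell cannot be told apart.

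Irf8 and Gfi1 are the members with a difference that passed by limma in the main fit. The 250 bases before their first listed start sites are shown for that reason (RefSeq, GRCm38.p6). Cebpa and Cebpd did not pass, though their BRSST+sgEzh2 arrays did not overlap sgLuc (log2 differences of 0.25 and -0.41). The table of 32851 promoter windows of 300 bases, 250 before and 50 after a start, held Cebpa, Cebpb, Gfi1 and Irf8. Capitals mark TTCNNNGAA, the GAS motif bound by STAT factors of interferon signalling, and TATAAA in Irf8 (chr8:120736108-120736357, plus strand), and TTGCNNAA, a C/EBP core, in Gfi1 (chr5:107725806-107726055, minus strand).
Irf8: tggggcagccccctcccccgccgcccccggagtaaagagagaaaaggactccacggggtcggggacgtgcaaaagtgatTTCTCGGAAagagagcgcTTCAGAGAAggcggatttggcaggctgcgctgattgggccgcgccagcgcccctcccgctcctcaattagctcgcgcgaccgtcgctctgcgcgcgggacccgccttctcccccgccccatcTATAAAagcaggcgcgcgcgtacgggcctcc
Gfi1: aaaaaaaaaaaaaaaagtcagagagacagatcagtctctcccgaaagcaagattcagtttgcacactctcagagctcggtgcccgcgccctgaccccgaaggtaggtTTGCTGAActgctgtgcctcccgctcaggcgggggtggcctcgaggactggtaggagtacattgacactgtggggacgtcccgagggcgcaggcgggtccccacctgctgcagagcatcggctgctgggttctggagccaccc
The Irf8 window held 2 GAS matches, beginning at positions -171 and -153 from the start, and TATAAA at -31. Of all windows 8.3% held a GAS match, 0.457% held 2 or more and 13.6% held TATAAA on either strand. The C/EBP core began at -143 in Gfi1 and occurred in 10.8% of windows. AAATCA, which contains the AATC core that GFI1 binds, was present on the reverse strand at -175 in Irf8, where it shares bases with the first GAS match, and in 14% of windows. GAGGAA, the PU.1 core (28.3% of windows), and the interferon-stimulated response element, searched as a pair of GAAA copies with any 2 bases between them (3.44%), had no match in any window of these 4 genes. TATAAA also stood at -30 in Cebpa. Both strands were searched in every case, and a match is a string of letters, not a bound site.

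Marrow identity and the guide target were checked before the members. Ptprc, the leukocyte antigen CD45, lay between log2 11.72 and 12.67 and Mpo, the neutrophil precursor peroxidase, between 12.87 and 13.29 across arrays, while the liver gene Alb lay between 5.42 and 6.59. Ptprc was 12.54 to 12.67 with sgLuc, above every array of BRSST+sgLuc (11.72 to 11.88) and BRSST+sgEzh2 (11.8 to 12.15). Ezh2 signal was 8.08 to 9.22 with BRSST+sgEzh2, 9.15 to 10.46 with BRSST+sgLuc and 9.94 to 10.55 with sgLuc. Array medians ran from 7.19 to 7.32. BRSST+sgLuc replicates 2 and 5 stood farthest apart on the second principal component, and the array numbers in the sample descriptions run on through both BRSST groups and resume after a gap for sgLuc. A batch of array processing, if there was one, and the absence of the BRSST combination cannot be told apart. By Y-linked signal all 4 sgLuc arrays fell in the high class, beside 2 of 5 BRSST+sgLuc and 2 of 4 BRSST+sgEzh2 arrays, so a block for that class is not balanced against sgLuc.

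**Figure D1:**
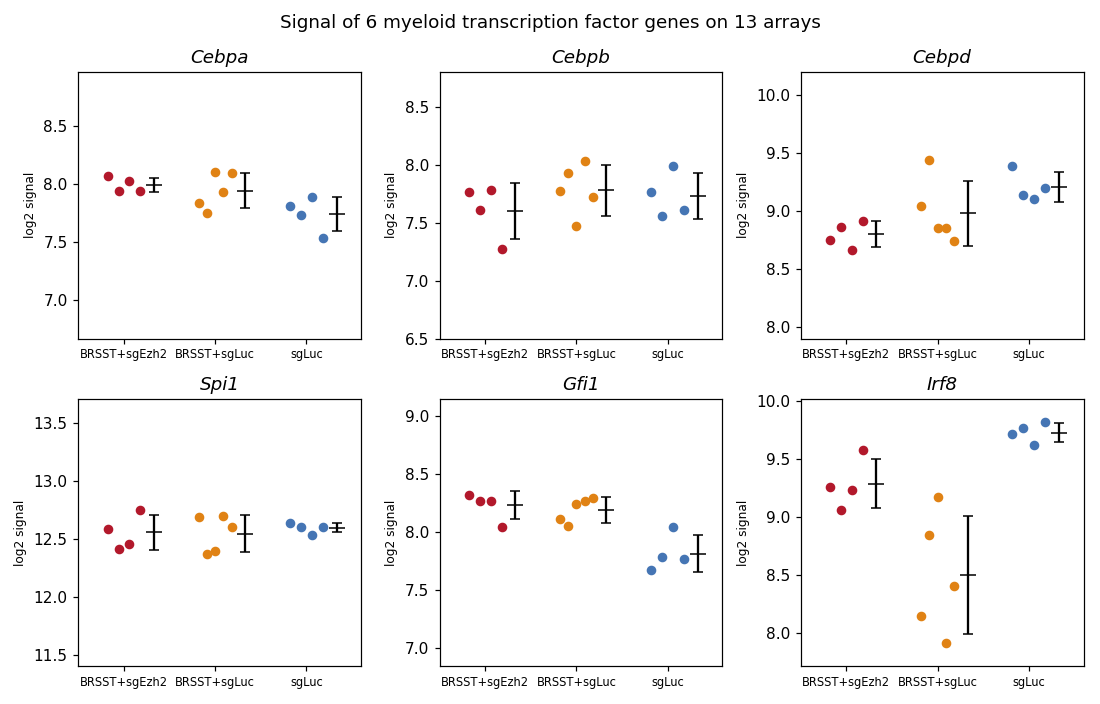
Log2 signal of each gene (y axis, the same span in each panel) on the 4 BRSST+sgEzh2, 5 BRSST+sgLuc and 4 sgLuc arrays, 1 point per array, with the group mean and SD as a bar at the right of each group. Irf8 falls furthest, to between 7.92 and 9.18 in BRSST+sgLuc, and the Spi1 points of all groups lie between 12.37 and 12.75.

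Irf8, the interferon regulatory factor of monocyte and dendritic cell fate, fell in BRSST+sgLuc marrow to 42.6% of the sgLuc level and took an intermediate level in BRSST+sgEzh2 marrow. The sgLuc arrays read log2 9.72, 9.77, 9.62 and 9.82 for replicates 1 to 4. The BRSST+sgLuc arrays read 8.15, 8.85, 9.18, 7.92 and 8.41 for replicates 1 to 5, and the BRSST+sgEzh2 arrays 9.26, 9.06, 9.24 and 9.58 for replicates 1 to 4. Every array of both BRSST groups lay below every sgLuc array, while BRSST+sgLuc replicate 3 reached into the BRSST+sgEzh2 range. BRSST+sgLuc against sgLuc, the comparison of the guide combination with its control, gave -1.23 ± 0.21 (log2, SE, n = 5 and 4, limma adjusted p = 0.00144, two-sided exact permutation p = 0.0159 over 126 splits). That difference ranked 329 by size among the 10601 genes. Dropping any single array of these groups (9 fits) kept the fall past the threshold, at -1.4 to -1.09.

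The Ezh2 guide on the BRSST background went with a higher Irf8 mean that did not pass over all genes. Means were 9.29 ± 0.21 (SD, n = 4) with BRSST+sgEzh2 and 8.5 ± 0.51 (SD, n = 5) with BRSST+sgLuc, a difference of 0.79 ± 0.21 (log2, SE) or 1.72-fold with a 95% interval of 126% to 236% of the BRSST+sgLuc level. The limma adjusted p was 0.102 and the two-sided exact permutation p was 0.0317 over 126 splits, where the smallest possible is 0.00794. Of the 4 BRSST+sgEzh2 arrays 3 lay above every BRSST+sgLuc array. The call changed with a dropped array and with other settings: the limma adjusted p was 0.0134 without BRSST+sgLuc replicate 3 (difference 0.95), 0.00358 with array quality weights and 0.0218 with the Y-linked class as a block. Array quality weights also raised the calls over all genes there, from 71 higher and 12 lower to 694 and 345. Irf8 in BRSST+sgEzh2 differed from sgLuc by -0.45 ± 0.22, or 73.4% of the sgLuc level, and the groups did not overlap. The limma adjusted p was 0.24, and the exact permutation p was 0.0286, the smallest that 70 splits allow. That difference passed with array quality weights (-0.5, limma adjusted p = 0.0268), with the Y-linked class as a block (-0.71, 0.0297) and with only these 2 groups in the fit (-0.45, 0.0288).

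Irf8 had the largest SD of the 6 members in BRSST+sgLuc, though not in the other groups. It was 0.512 in BRSST+sgLuc, above that of 89.4% of genes tested, against 0.213 in BRSST+sgEzh2 and 0.0845 in sgLuc. The corresponding medians over all genes tested were 0.248, 0.188 and 0.154. Marker lists of the cells that express Irf8 had lower means in both BRSST groups than in sgLuc. For monocyte markers the BRSST+sgEzh2 arrays (10.05 to 10.77) overlapped the sgLuc arrays (10.54 to 10.75). Between the BRSST groups the monocyte and B lineage means were higher with the Ezh2 guide, as was Irf8. The plasmacytoid mean was not, and the conventional dendritic mean was nearly the same. The mean log2 signal of 7 monocyte markers was 10.65 ± 0.11 (SD, n = 4) in sgLuc, 9.65 ± 0.53 (SD, n = 5) in BRSST+sgLuc and 10.4 ± 0.3 (SD, n = 4) in BRSST+sgEzh2. Within BRSST+sgLuc it was 10.16 and 10.28 on replicates 2 and 3, which had the highest Irf8, and 9.15 to 9.39 on the other 3 arrays. In BRSST+sgEzh2 the order of the arrays by monocyte markers matched their order by Irf8. In sgLuc it did not. There replicate 3 had the lowest Irf8, yet its monocyte mean of 10.73 lay above those of replicates 1 and 2 (10.58 and 10.54). The mean of 6 plasmacytoid dendritic markers was 10.31 ± 0.19 in sgLuc, 8.35 ± 0.7 in BRSST+sgLuc and 8.12 ± 0.32 in BRSST+sgEzh2. Limma called 0 of these 6 between the BRSST groups, beside 0.783% of all genes tested. The mean of 9 B lineage markers was 10.12 ± 0.52, 7.59 ± 0.77 and 8.42 ± 1.03 in the same order, and that of 7 conventional dendritic markers 8.63 ± 0.11, 7.37 ± 0.73 and 7.41 ± 0.48. Within BRSST+sgLuc these lists too were highest on replicates 2 and 3. They read 9.37 and 8.79 (plasmacytoid), 8.93 and 7.57 (B lineage) and 8.53 and 7.65 (conventional dendritic) there. Between BRSST+sgLuc and sgLuc, 4 of 7 monocyte, 5 of 6 plasmacytoid, 7 of 8 tested B lineage and 2 of 5 tested conventional dendritic markers fell and none rose. Of all genes tested 11.7% were called lower there and 10.8% higher. In BRSST+sgEzh2 against sgLuc 6 of 6 plasmacytoid, 1 of 8 B lineage and 1 of 5 conventional dendritic markers fell and none rose. Of 7 monocyte markers 1 fell and 1 rose (F13a1, 1.21 ± 0.24, limma adjusted p = 0.00618). In that comparison 3.86% of all genes tested were called lower and 5.51% higher. With the Ezh2 guide 1 monocyte marker rose over BRSST+sgLuc, the macrophage pore protein gene Mpeg1 (1.38 ± 0.28, limma adjusted p = 0.0371). Of all genes tested 0.67% were called higher there. Mpeg1 and F13a1 were not followed in the fits without 1 array or with other settings. Lists of other cells moved with the groups too, though that of stem and progenitor cells moved little. Mean log2 signals in sgLuc, BRSST+sgLuc and BRSST+sgEzh2 were 7.38, 8.5 and 7.73 for 6 erythroid markers, 8.6, 6.26 and 7.37 for 6 T and NK markers and 10.87, 8.15 and 8.3 for 4 basophil and mast cell markers. For 5 stem and progenitor markers they were 8.41, 8.48 and 8.61, with 0 of 4 tested called in each comparison. In BRSST+sgLuc against sgLuc 2 of 5 tested erythroid markers rose, and 5 of 5 tested T and NK and 3 of 4 basophil and mast markers fell. The part of these cell types in the Irf8 result was not tested.

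**Figure D2:**
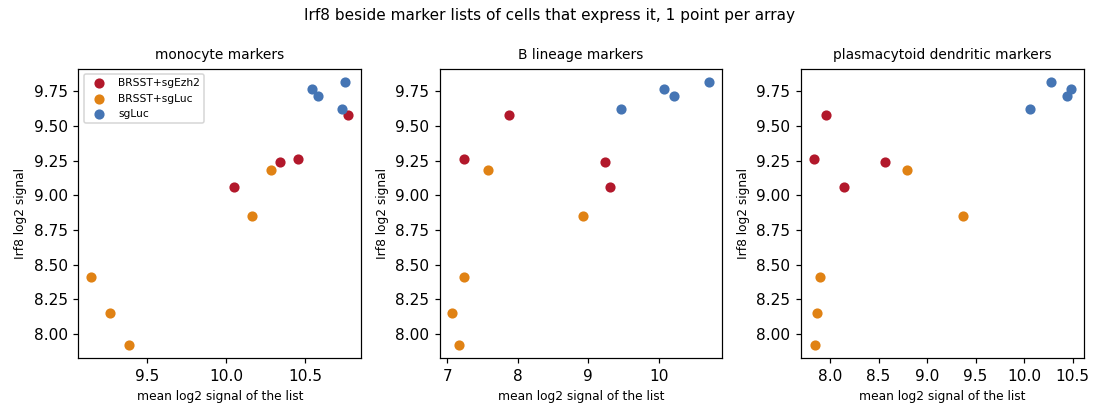
Irf8 log2 signal (y axis) against the mean log2 signal of 7 monocyte, 9 B lineage and 6 plasmacytoid dendritic cell markers (x axes), 1 point per array and coloured by group. The 3 BRSST+sgLuc arrays with Irf8 under 8.5 have monocyte means of 9.15 to 9.39, and the plasmacytoid means of both BRSST groups (up to 9.37) lie below those of sgLuc (from 10.06).

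Gfi1, the zinc finger repressor of neutrophil fate, rose in both BRSST groups by 1.3-fold and 1.33-fold. Its row lay only 0.4 to 1.1 log2 units above the median of its array. The sgLuc arrays read log2 7.67, 7.78, 8.04 and 7.77, the BRSST+sgLuc arrays 8.11, 8.05, 8.24, 8.27 and 8.29, and the BRSST+sgEzh2 arrays 8.32, 8.27, 8.27 and 8.04, in replicate order. Every BRSST array lay above every sgLuc array, with sgLuc replicate 3 and BRSST+sgEzh2 replicate 4 nearly touching. The rise was 0.38 ± 0.1 (log2, SE) in BRSST+sgLuc, or 1.3-fold (limma adjusted p = 0.0195, exact permutation p = 0.00794, the smallest that 126 splits allow). It was 0.41 ± 0.11 in BRSST+sgEzh2, or 1.33-fold (limma adjusted p = 0.0324, exact permutation p = 0.0286). Both comparisons use the same sgLuc arrays. The first lost its call without sgLuc replicate 1, 2 or 4 (limma adjusted p of 0.0519 to 0.0742, difference of 0.33 to 0.36). The second lost it without BRSST+sgEzh2 replicate 1, 2 or 3 or sgLuc replicate 1, 2 or 4 (limma adjusted p of 0.0706 to 0.114, difference of 0.36 to 0.4). BRSST+sgEzh2 and BRSST+sgLuc differed in Gfi1 by 0.035 ± 0.1, with a 95% interval of -0.19 to 0.26. Primary granule markers, made by neutrophil precursors, had mean log2 signals of 12.34 to 12.49 in sgLuc, 12.64 to 12.97 in BRSST+sgLuc and 12.66 to 12.92 in BRSST+sgEzh2. Of these 5 markers 3 rose in BRSST+sgLuc and 2 in BRSST+sgEzh2 against sgLuc, and none fell. The shares of all genes called higher were 10.8% and 5.51%. Markers of late neutrophils lay at 12.93 to 13.09, 12.64 to 12.74 and 12.73 to 12.9, and 3 of 9 fell in BRSST+sgLuc, beside 11.7% of all genes. In BRSST+sgEzh2 1 of 9 fell, beside 3.86%. Both marker lists lie in the upper part of the signal range, which ends at 13.75, and compression of differences there was not tested. The part of these markers in the Gfi1 result was not tested.

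Set against each other on the same array, Gfi1 and Irf8 changed unequally. Log2 Gfi1 minus log2 Irf8 was -2.05 to -1.58 in sgLuc, -1.53 to -0.79 in BRSST+sgEzh2 and -0.94 to 0.35 in BRSST+sgLuc. The groups were ordered sgLuc, BRSST+sgEzh2, BRSST+sgLuc, with BRSST+sgLuc replicates 2 and 3 (-0.8 and -0.94) inside the BRSST+sgEzh2 range. The 2 rows have no common scale, so only the shift between groups can be read.

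**Figure D3:**
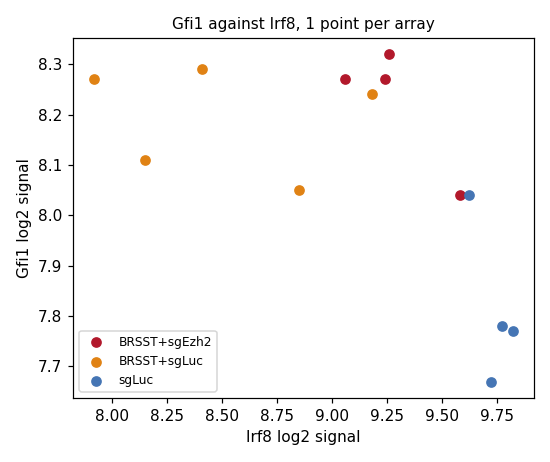
Gfi1 log2 signal (y axis) against Irf8 log2 signal (x axis), 1 point per array and coloured by group. The sgLuc arrays lie at the lower right, with Irf8 from 9.62 and Gfi1 up to 8.04, and the BRSST+sgLuc arrays extend to Irf8 of 7.92.

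Spi1, which encodes the Ets factor PU.1, had nearly the same signal in the 3 groups. It read 12.42 to 12.75 with BRSST+sgEzh2, 12.37 to 12.7 with BRSST+sgLuc and 12.54 to 12.64 with sgLuc, and the groups overlapped in every comparison. BRSST+sgLuc against sgLuc gave -0.047 ± 0.11 (log2, SE, 95% interval -0.27 to 0.18, limma adjusted p = 0.798). BRSST+sgEzh2 against BRSST+sgLuc gave 0.0038 ± 0.11 (-0.22 to 0.23, limma adjusted p = 0.993). BRSST+sgEzh2 against sgLuc gave -0.043 ± 0.11 (-0.28 to 0.19, limma adjusted p = 0.87). Its row was above 99% or more of all rows on each array and 0.87 to 1.29 log2 units under the brightest.

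Cebpa, whose product drives progenitors into the granulocyte and monocyte line, differed between groups by less than the limma test resolves. Its row lay only 0.29 to 0.9 log2 units above the median of its array. Signals were 8.07, 7.94, 8.02 and 7.94 with BRSST+sgEzh2, 7.83, 7.75, 8.1, 7.93 and 8.09 with BRSST+sgLuc, and 7.81, 7.73, 7.89 and 7.53 with sgLuc. BRSST+sgEzh2 lay above sgLuc without overlap, by 0.25 ± 0.11 (log2, SE, 1.19-fold, limma adjusted p = 0.181, exact permutation p = 0.0286), and passed with array quality weights (0.28, limma adjusted p = 0.0251). BRSST+sgLuc overlapped sgLuc (0.2 ± 0.11, limma adjusted p = 0.205) and BRSST+sgEzh2 (0.053 ± 0.11, 95% interval -0.18 to 0.28).

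Cebpd, a C/EBP gene induced in acute phase and late myeloid cells, was lowest with the Ezh2 guide. BRSST+sgEzh2 arrays read 8.75, 8.86, 8.66 and 8.91, BRSST+sgLuc arrays 9.04, 9.44, 8.85, 8.85 and 8.74, and sgLuc arrays 9.39, 9.14, 9.1 and 9.2. All 4 BRSST+sgEzh2 arrays lay below sgLuc, as did 4 of 5 BRSST+sgLuc arrays. The exception was BRSST+sgLuc replicate 2. BRSST+sgEzh2 against sgLuc gave -0.41 ± 0.14 (log2, SE), or 75.2% of sgLuc, with a limma adjusted p of 0.0913 and an exact permutation p of 0.0286. It passed with only these groups in the fit (limma adjusted p = 0.0226) and with array quality weights (-0.46, 0.00349). BRSST+sgLuc against sgLuc gave -0.23 ± 0.14 (limma adjusted p = 0.265), and -0.34 without replicate 2 (limma adjusted p = 0.0287). The BRSST groups differed by -0.19 ± 0.14 (limma adjusted p = 0.593).

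Cebpb, the factor of emergency granulopoiesis, showed no difference that passed. It read 7.27 to 7.78 with BRSST+sgEzh2, 7.47 to 8.03 with BRSST+sgLuc and 7.56 to 7.99 with sgLuc, overlapping in each comparison. Differences were -0.18 ± 0.14 between the BRSST groups, 0.053 ± 0.14 for BRSST+sgLuc against sgLuc and -0.13 ± 0.15 for BRSST+sgEzh2 against sgLuc (limma adjusted p of 0.629, 0.836 and 0.681). The 95% interval between the BRSST groups, -0.49 to 0.13, still leaves room for a level of 71.1% with the Ezh2 guide. The row lay only 0.075 to 0.79 log2 units above the median of its array. Cebpb minus Cebpa within an array ran from -0.67 to -0.25 with BRSST+sgEzh2, -0.63 to 0.19 with BRSST+sgLuc and -0.17 to 0.11 with sgLuc. Spi1 minus Cebpa ran from 4.44 to 4.81, 4.3 to 4.86 and 4.65 to 5.08.

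Between BRSST+sgLuc and sgLuc, 1 of the 6 members rose and 1 fell by limma at an adjusted p of 0.05, where 22.5% of all genes tested were called, 10.8% higher and 11.7% lower. Between BRSST+sgEzh2 and sgLuc 1 rose and 0 fell, against 9.37% called among all genes (5.51% higher, 3.86% lower), and 3 had an unadjusted p under 0.05. With BRSST+sgEzh2 against BRSST+sgLuc limma called 0 of 6, against 0.783% of all genes (0.67% higher, 0.113% lower), and 1 had an unadjusted p under 0.05 (Irf8). Groups did not overlap for 2, 4 and 0 members in these comparisons, beside 18.9% (9.09% higher, 9.82% lower), 23.3% (14.2% and 9.06%) and 3.53% (2.52% and 1.01%) of all genes. The median difference of the members was 0.003, -0.086 and 0.019 beside 0.0092, 0.023 and 0.013 over all genes tested. Beside those shares, so few calls among 6 genes say nothing of the members as a set.

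**Figure D4:**
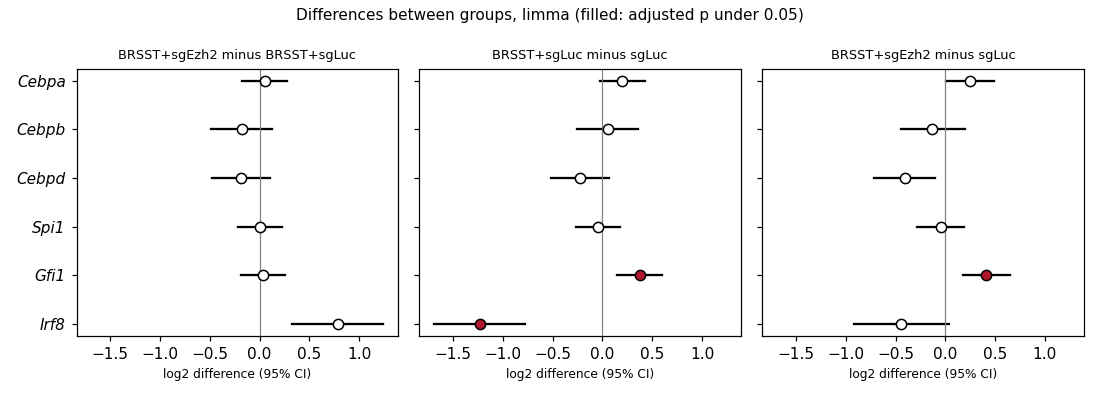
Log2 difference (x axis) with its 95% interval for each of the 6 genes in the 3 comparisons, filled where the limma adjusted p was under 0.05. Irf8 at -1.23 and Gfi1 at 0.38 are filled for BRSST+sgLuc against sgLuc, Gfi1 at 0.41 for BRSST+sgEzh2 against sgLuc, and none between the BRSST groups.

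The genes nearest to each member were taken by Pearson correlation of log2 signal over the 13 arrays, which share their group differences and their normalization. For Irf8 they were Dpysl2, a collapsin response mediator (r = 0.976), Padi2, an arginine deiminase (0.975), and Cd2ap, an actin adaptor (0.971), and r stayed at 0.909, 0.901 and 0.911 after the group means were removed. Padi2 averaged 10.66 in sgLuc, 7.79 in BRSST+sgLuc and 9.52 in BRSST+sgEzh2. For Gfi1 they were Nrg2, Tfap4 and the ribosomal protein gene Rpl38 (0.925, 0.902 and 0.9), which dropped to 0.704, 0.668 and 0.583 within groups. Cebpd went with Ostf1, Timp2 and Mettl9 (0.953, 0.912 and 0.891), Cebpa with Ddit4, Gas2 and Perp (0.878, 0.871 and 0.832) and Spi1 with Slc35e1, Chp1 and Rab11fip1 (0.908, 0.896 and 0.886). Cebpb went with Olig2, a factor of oligodendrocytes and motor neurons, Sag, the retinal arrestin, and Apol6 (0.956, 0.946 and 0.943). Here r stayed at 0.952, 0.937 and 0.934 after the group means were removed. Group means of Olig2, Sag and Apol6 lay between 7.23 and 8.04, where array medians were 7.19 to 7.32. Cebpa (0.29 to 0.9 log2 units above the array median) and Gfi1 (0.4 to 1.1) lay little higher than Cebpb (0.075 to 0.79). How much of the Cebpb, Cebpa and Gfi1 signal is background was not tested.

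Other genes of these pathways were counted with the same fit, and no list was tested as a set. Among all genes tested 22.5% were called in BRSST+sgLuc against sgLuc (10.8% higher, 11.7% lower). The shares were 9.37% in BRSST+sgEzh2 against sgLuc (5.51% higher, 3.86% lower) and 0.783% between the BRSST groups (0.67% higher, 0.113% lower). The list counts that follow are to be read beside these shares. Among the other IRF family genes, 5 of 7 fell and none rose in BRSST+sgLuc against sgLuc. Irf4, a factor of B and plasma cells, fell by 2.06 ± 0.33, Irf7, which drives type I interferon, fell by 1.08 ± 0.25, and Irf9, the DNA-binding part of the interferon-stimulated complex ISGF3, fell by 0.92 ± 0.16 (limma adjusted p of 0.000899, 0.0087 and 0.00163). Against sgLuc 3 of 7 fell in BRSST+sgEzh2, Irf4 by 1.72, Irf7 by 0.97 and Irf9 by 0.72. Irf5, a factor of inflammatory macrophages, rose by 0.52 ± 0.11 between the BRSST groups (limma adjusted p = 0.0401). All 7 were higher there, with a median of 0.27 beside 0.013 over all genes. The Irf5 call ended in 6 of 9 fits without 1 array (any BRSST+sgEzh2 array, or BRSST+sgLuc replicate 1 or 4, limma adjusted p of up to 0.133), and with quantile normalization (0.0671), equal medians (0.099), the replicate block (0.0639), only the 2 groups in the fit (0.122) or BRSST+sgLuc replicates 2 and 5 left out together (0.0502). In BRSST+sgEzh2 against sgLuc, Irf7 lost its call in 6 of 8 such fits (without BRSST+sgEzh2 replicate 1, 2 or 3 or sgLuc replicate 1, 2 or 4, limma adjusted p of up to 0.109) and with the Y-linked class as a block (0.0664), and Irf9 lost it without sgLuc replicate 1 or 2 (up to 0.0556).

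Of 10 other Ets family genes tested, 3 fell in BRSST+sgLuc against sgLuc and none rose. Spib, the PU.1 relative of B cells and plasmacytoid dendritic cells, fell 9.82-fold (-3.29 ± 0.68, limma adjusted p = 0.004), Ets1, a lymphoid factor, 3.63-fold (-1.86 ± 0.21, 8.64e-05) and Erg, a stem cell and megakaryocyte factor, 1.82-fold (-0.86 ± 0.14, 0.00119). Against sgLuc, Ets1 fell in BRSST+sgEzh2 (-1.67 ± 0.22, limma adjusted p = 0.000384), and Spib was at -2.33 ± 0.71, a larger difference that did not pass (0.0554). None of the 10 passed by limma between the BRSST groups, with Erg at 0.53 ± 0.14 (limma adjusted p = 0.104, which became 0.00596 when BRSST+sgLuc replicate 3 was dropped). The other C/EBP genes and Trib regulators had 0 of 4 called in each comparison, and Cebpe, the factor of late granulocytes, was at -0.32 ± 0.12 in BRSST+sgLuc against sgLuc (limma adjusted p = 0.0742, which became 0.0258 when BRSST+sgLuc replicate 3 was dropped). Ddit3, the stress-induced C/EBP relative CHOP, was at -0.36 ± 0.15 between the BRSST groups and -0.37 ± 0.15 in BRSST+sgEzh2 against sgLuc (limma adjusted p of 0.287 and 0.155).

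Among the GFI1 paralog Gfi1b and 5 corepressors, only Hdac1 was called in BRSST+sgLuc against sgLuc, where 22.5% of all genes were. It fell (-0.52 ± 0.17, limma adjusted p = 0.0461). That call ended in 7 of 9 fits without 1 array, all but those without BRSST+sgLuc replicate 1 or 3 (limma adjusted p of up to 0.125). Between the BRSST groups 0 of 6 passed, with the methyltransferase gene Ehmt2 at 0.43 ± 0.15 (limma adjusted p = 0.209), and 0 of 6 passed in BRSST+sgEzh2 against sgLuc, with Gfi1b at -0.22 ± 0.13 (0.338). Of 5 genes that GFI1 is known to repress, 3 rose in BRSST+sgLuc and 4 in BRSST+sgEzh2 against sgLuc, and none fell. Of all genes tested 10.8% and 5.51% were called higher in these comparisons. A link between these genes and the Gfi1 level was not tested. The cell cycle inhibitor gene Cdkn1a rose by 1.29 ± 0.21 and 1.08 ± 0.22, Id1, an inhibitor of basic helix-loop-helix factors, by 1.17 ± 0.2 and 1.19 ± 0.21, and its relative Id2 by 0.7 ± 0.17 and 0.64 ± 0.18 (limma adjusted p of 0.00114 to 0.0375). Csf1, the macrophage growth factor, rose in BRSST+sgEzh2 (0.64 ± 0.16, limma adjusted p = 0.0274, and up to 0.0759 in the 6 of 8 fits, without any sgLuc array or BRSST+sgEzh2 replicate 1 or 4, that lost it). Between the BRSST groups 0 of 5 passed, with Csf1 at 0.66 ± 0.16 (limma adjusted p = 0.0665, which became 0.0497 when BRSST+sgLuc replicate 3 was dropped).

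Target genes of C/EBP factors and PU.1 split in direction. Of 15, 6 fell and 2 rose in BRSST+sgLuc against sgLuc, with a median of -0.24 beside 0.0092 over all genes. Csf1r, the receptor of macrophage growth factor, fell by 0.82 ± 0.19, Csf3r, the receptor of granulocyte growth factor, fell by 0.76 ± 0.1, and Lyz2, lysozyme, fell by 0.76 ± 0.21 (limma adjusted p of 0.00842, 0.000304 and 0.0206). Lyz2 lost its call without BRSST+sgLuc replicate 1 or 4 or sgLuc replicate 1 (up to 0.0545). Cd14, the lipopolysaccharide co-receptor, rose 5.8-fold (2.54 ± 0.25, limma adjusted p = 2.29e-05) and Prtn3, proteinase 3 of primary granules, 1.38-fold (0.47 ± 0.12, 0.0108). In BRSST+sgEzh2 against sgLuc 3 fell and 2 rose, with Cd14 5.43-fold and Prtn3 1.45-fold higher, Itgam, the integrin CD11b, at -0.48, Ltf, lactoferrin, at -0.43 and Csf3r at -0.37 (limma adjusted p of 5.66e-05 to 0.0438). Csf3r lost its call in 7 of 8 fits without 1 array, all but that without BRSST+sgEzh2 replicate 4, Itgam in 6, all but those without BRSST+sgEzh2 replicate 4 or sgLuc replicate 4, Ltf in 3 (BRSST+sgEzh2 replicate 2 or sgLuc replicate 1 or 2) and Prtn3 without sgLuc replicate 1 (limma adjusted p of up to 0.138). The BRSST groups differed in 0 of 15 by limma, with Csf1r at 0.84 ± 0.19 (limma adjusted p = 0.0603), which passed when BRSST+sgLuc replicate 2 or 3 was dropped (down to 0.0185).

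Of 5 measured targets of IRF8, 2 fell in BRSST+sgLuc against sgLuc, where 11.7% of all genes tested were called lower. A link to the Irf8 level was not tested. Cybb, the catalytic subunit of the phagocyte oxidase, fell by 0.53 ± 0.1 (limma adjusted p = 0.002) and Klf4, a monocyte factor that acts downstream of Irf8, fell by 0.76 ± 0.23 (0.0321). Cybb also fell in BRSST+sgEzh2 against sgLuc (-0.49 ± 0.1, limma adjusted p = 0.00862). The Klf4 call ended in 7 of 9 fits without 1 array, all but those without BRSST+sgLuc replicate 3 or sgLuc replicate 2 (limma adjusted p of up to 0.0944). Klf4 was at 0.74 ± 0.23 between the BRSST groups (limma adjusted p = 0.177), where 0 of 5 passed, and its adjusted p was 0.00953 when BRSST+sgLuc replicate 3 was dropped. Among 7 monocyte and macrophage factors tested, a list that also holds Klf4, Klf4 was the only call in BRSST+sgLuc against sgLuc and 0 passed between the BRSST groups. Tfec, a factor of the macrophage line, rose in BRSST+sgEzh2 against sgLuc (0.81 ± 0.18, limma adjusted p = 0.0104) and stood at 0.77 ± 0.17 between the BRSST groups (0.0503). That difference passed when BRSST+sgLuc replicate 2 or 3 was dropped (down to 0.00707), with no filter (0.0477), with trend and robust variance (0.0394), with array quality weights (0.00696) and with the Y-linked class as a block (0.0415). The number of these factors called between the BRSST groups ran from 0 to 3 over the alternative settings.

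Of 11 factors of other lineages, 7 fell and none rose in BRSST+sgLuc against sgLuc. Pax5 fell 7.95-fold (-2.99 ± 0.76), Ebf1 7.32-fold (-2.87 ± 0.58) and Ikzf3 5.04-fold (-2.33 ± 0.45), all of them B cell factors (limma adjusted p of 0.0125, 0.00374 and 0.00272). In BRSST+sgEzh2 against sgLuc 3 of 11 fell, Ikzf3 at -1.83, Bach2 at -1.32 and Tcf4 at -0.96 (limma adjusted p of 0.0263, 0.00875 and 0.0396). Pax5 at -2.25 ± 0.8 and Ebf1 at -2.06 ± 0.61 differed by more and did not pass (0.096 and 0.0502). The number called there ran from 1 to 8 over the alternative settings. Ikzf3 lost that call in 5 of 8 fits without 1 array (BRSST+sgEzh2 replicate 1, 2 or 4 or sgLuc replicate 1 or 4), and Tcf4 in 7, all but that without BRSST+sgEzh2 replicate 3 (limma adjusted p of up to 0.11). For BRSST+sgEzh2 against BRSST+sgLuc 0 of 11 passed, with Gata2, a stem cell and mast cell factor, at 0.44 ± 0.26 (limma adjusted p = 0.487).

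**Figure D5:**
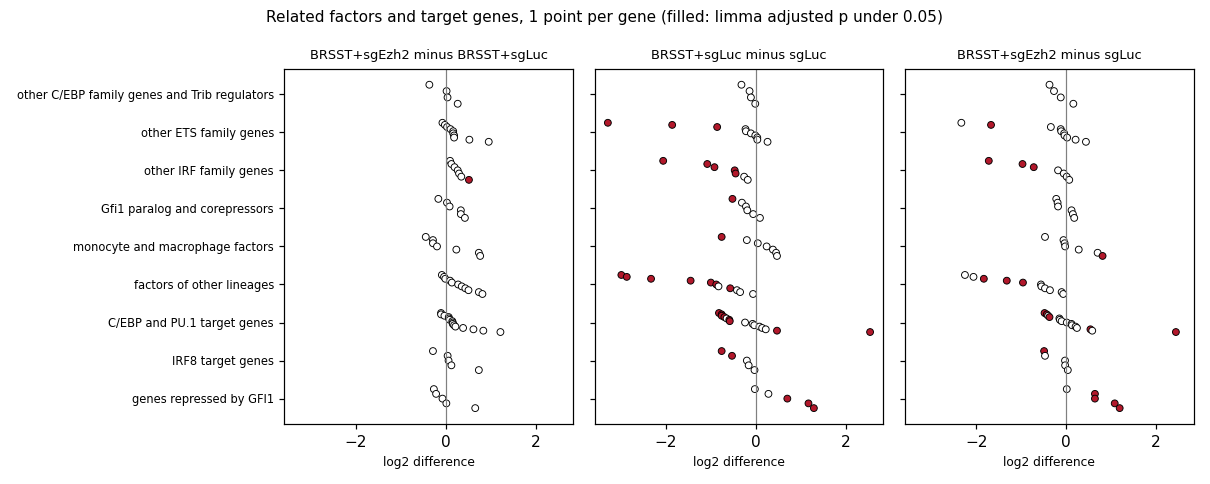
Log2 difference (x axis) of each tested gene of 9 lists (rows) in the 3 comparisons, 1 point per gene, filled where the limma adjusted p was under 0.05. For BRSST+sgLuc against sgLuc the filled points of the other IRF, other Ets and other-lineage lists all lie below 0, those of the GFI1-repressed list all above, and between the BRSST groups only Irf5 is filled.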

How the data were processed

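Per the submitters' processing notes the authors used R 3.5.01 and oligo, with no version given for oligo. The deposited values are log2 signals, a scale read from their range of 3.23 to 13.75. Methods of background correction and normalization: not given in the sources used here. Per the labels' protocols 2 ng of RNA was amplified with 10 PCR cycles, which can distort large differences.

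Of 22203 rows, 19572 had 1 symbol, 0 had several and 2631 had none. The row of highest mean was kept for the 55 genes with several. Genes above their array's median on at least 4 arrays were tested with limma 3.58.1 in R 4.3.3 (lmFit, eBayes, all 13 arrays, no covariates, Benjamini-Hochberg over 10601 genes, threshold 0.05). Groups came from the treatment label. Members were also given a two-sided exact permutation test. Differences are signed first group minus second. Precision here is limited by the number of arrays. In simulated data, 200 of 10601 genes were shifted by log2 1 or 2 over normal noise drawn independently for each gene and array. Of those shifted by log2 1, 81%, 80% and 80% were recovered in, respectively, the comparison of the BRSST groups, that of BRSST+sgLuc with sgLuc and that of BRSST+sgEzh2 with sgLuc. Smaller differences, such as those of Gfi1, Cebpa and Cebpd, and variation shared between genes were not simulated. The members and lists were chosen with earlier results of these data known. List genes named were, per comparison, up to 3 called in each direction with the largest change, or that of smallest p where none was. Up to 2 markers a list and the 3 genes nearest to each member by correlation were also named. Alternatives were other filters, normalizations, row and variance rules, array weights, the replicate block, a block for the class of arrays by Y-linked signal (Uty and Kdm5d), only 2 groups, a threshold of 0.01 and single arrays left out. Leaving out BRSST+sgLuc replicates 2 and 5 together was added after seeing the data. Replicate numbers were not taken as pairs: same-numbered arrays had correlations of -0.176 to 0.192 between their deviations from group means, over 0.1 in 4 of 12 pairs. Figures were drawn with matplotlib 3.10.9.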

Additional observations from a re-analysis of the deposited data

How the results depend on the processing

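The number of members called moved with several settings. Between the BRSST groups it was 0, and 1 (Irf8) with array quality weights or the Y-linked class as a block. For BRSST+sgLuc against sgLuc it was 2, and 1 with the 75th percentile filter, which left Gfi1 untested, or a threshold of 0.01, and 3 with array quality weights. For BRSST+sgEzh2 against sgLuc it was 1, and 0 with that filter or that threshold, 4 with array quality weights, 2 with the Y-linked class as a block and 3 with only the 2 groups compared. Calls over all 10601 genes moved as well. Between the BRSST groups 71 rose and 12 fell in the main fit. With array quality weights 694 and 345 did, and with the Y-linked class 154 and 16. For BRSST+sgLuc against sgLuc 1149 and 1240 became 2405 and 2474 with weights. For BRSST+sgEzh2 against sgLuc 584 and 409 became 1571 and 1405 with weights. They became 564 and 557 with the Y-linked class and 1043 and 779 with only the 2 groups. Without 1 array the member counts ran from 0 to 1, 1 to 3 and 0 to 1. The Irf8 difference between the BRSST groups was 1.01 with array quality weights, 0.84 with the Y-linked class as a block and 0.64 to 0.95 without 1 array, and it passed with the first 2 of these and without BRSST+sgLuc replicate 3. Against sgLuc with BRSST+sgEzh2, values that newly passed were Irf8 at -0.5 (weights), -0.71 (Y-linked class) and -0.45 (2 groups), Cebpa at 0.28 (weights) and Cebpd at -0.46 (weights) and -0.41 (2 groups). Cebpd in BRSST+sgLuc against sgLuc passed at -0.27 with weights and ran from -0.34 to -0.16 without 1 array. Gfi1 ran from 0.33 to 0.45 and from 0.36 to 0.49 against sgLuc without 1 array. Values near 0 turned sign, none of them called. Between the BRSST groups Cebpa was -0.0088 and Gfi1 -0.036 with quantile normalization, and Gfi1 ran from -0.00039 to 0.1 without 1 array. Spi1 was -0.028 with equal medians, -0.094 with weights, -0.0044 with the Y-linked class, -0.039 without BRSST+sgLuc replicates 2 and 5, and -0.061 to 0.049 without 1 array. For BRSST+sgLuc against sgLuc Spi1 was 0.024 with weights and 0.0019 with the Y-linked class, and Cebpb ran from -0.009 to 0.14 without 1 array. Spi1 in BRSST+sgEzh2 against sgLuc ran from -0.11 to 0.0019. The cause was not tested. With the replicate block Irf8 was at -1.21 (limma adjusted p = 0.00849) and Gfi1 at 0.35 (0.0464) in BRSST+sgLuc against sgLuc, and 2, 1 and 0 members were called as without it. Of 38 calls of named list genes 25 held in every fit without 1 array.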
